A study of Mus musculus with 12 samples.

Results

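Resident tissue macrophages are the long-lived phagocytes of skin and other tissues, and the 31 genes described here are ones such cells are known to express. The members are a list of named genes drawn up with earlier results of these data known, although no measured value is part of the rule, and all 31 were found among 55401 gene IDs in both deposited count tables. They were followed in 12 RNA libraries of CD45+/CD11b+/Ly6G- cells, that is, myeloid cells other than neutrophils, sorted from mouse hind paws 4 h after saline or 1% carrageenan. Carrageenan, a polysaccharide from seaweed, causes rapid swelling and pain where it is injected. Adult mice of 2 genotypes were used, FABP5Flox, called Flox below, and FABP5Flox/LysM-Cre, called cKO. Both carried the floxed Fabp5 allele and cKO mice alone carried Cre, driven from the lysozyme gene Lyz2 in myeloid cells. The 4 groups were Flox with saline, Flox with carrageenan, cKO with saline and cKO with carrageenan. There were 3 libraries per group (n = 3), made from pooled cells of 3 or 4 mice each, with 10 mice in each Flox group and 12 in each cKO group by the numbers in the titles. No group carried LysM-Cre alone, so the effects of the recombinase, of the changed Lyz2 locus and of Fabp5 loss cannot be told apart.

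Resident macrophages take up dead cells, hemoglobin, hyaluronan and other debris through scavenger and phosphatidylserine receptors, and they depend on CSF1 and, in many tissues, on TGF-beta signals. In an inflamed tissue they share the space with monocytes that arrive from blood, and a bulk sample of sorted myeloid cells holds both. In bulk samples, fewer cells of a type and less RNA per cell cannot be told apart. That limit holds for every difference below.

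Reads assigned to genes ranged from 111925 in the Flox saline pool 1-3 to 2987015 in the cKO saline pool 5-8. Depth moved with genotype, since the geometric mean of reads was 4.99 times higher in cKO than in Flox libraries. Values are normalized counts on a scale common to all 12 libraries unless said otherwise, and folds are log2 fold changes ± SE from limma on log2(value + 1). A single read was worth 5.51 normalized counts in Flox saline 1-3 and 0.253 in cKO saline 5-8. A pair of libraries stood apart: Flox saline 1-3 by its depth, and cKO carrageenan 9-12 within its group, so counts are also given without them. Fabp5, the targeted gene, which encodes a fatty acid binding protein, was at 5.51 to 98.0 normalized counts in Flox libraries and at 4.05 to 23.0 in cKO libraries, and was read in every one of them. The lowest Flox value was a single read, and the other Flox libraries were at 22.5 to 98.0. In cKO carrageenan 9-12 Fabp5 was at 23.0, against 6.12 and 11.5 in the other cKO carrageenan pools. All 3 values lay below the 3 Flox carrageenan libraries (34.0 to 98.0) and inside the range of Flox saline (5.51 to 34.95). Lyz2, the locus that carries Cre, was at 3496 in cKO carrageenan 9-12, against 1918 to 2957 in the other cKO libraries and 2933 to 5901 in Flox. These values do not settle the genotype of cKO carrageenan 9-12, which is called cKO below by its label alone. Whether the deletion removes the 3' end that was sequenced is not given in the labels. Of the sort's own markers, Ptprc, which encodes CD45, and Itgam, which encodes CD11b, were read in every library. Ly6g, which encodes Ly6G, had 4 reads in all. Genes of keratinocytes and fibroblasts were read as well, with sums given below, so these markers do not show that the sorted cells were pure. Of the resident macrophage members, 29 were tested, having a value of 5 or more in 3 or more libraries. The others were Cd5l, which encodes a secreted scavenger protein of macrophages, with 8 reads in all 12 libraries, and Siglec1, which encodes sialoadhesin, with 38.

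Carrageenan lowered nearly the whole set within 4 h. Averaged over both genotypes, 26 of 29 tested members fell (limma, Benjamini-Hochberg adjusted p under 0.05 over 10240 genes), none rose, and the other members, Hpgds, Tgfbr1 and Trf, had negative folds that did not pass. Among all genes tested, 4.86% fell. The median fold of the members was -1.61, against 0.02 over all genes. Every one of the 6 carrageenan libraries lay below every one of the 6 saline libraries for 17 of 29 members, a pattern that 3.11% of all tested genes showed. Without both libraries that stood apart, 26 of 29 members fell, beside 5.93% of all genes. On the scale of the deposited tables, where saline and carrageenan had been normalized separately, 27 of 29 did, beside 5.99% of all genes. The choice of scale moved the share of higher genes among all called ones from 58.3% to 49.3%.

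Summed over the 31 members, reads made up 1.91% (95% Wilson interval 1.84 to 2.00), 2.00% (1.95 to 2.05) and 1.85% (1.82 to 1.88) of gene reads in the Flox saline pools 1-3, 4-7 and 8-10. After carrageenan the Flox pools of the same numbers held 0.575% (0.548 to 0.604), 0.455% (0.428 to 0.484) and 0.572% (0.557 to 0.587). The cKO saline pools 1-4, 5-8 and 9-12 held 2.25% (2.23 to 2.27), 2.32% (2.31 to 2.34) and 2.14% (2.11 to 2.16). After carrageenan the cKO pools 1-4 and 5-8 were at 1.11% (1.09 to 1.12) and 1.02% (1.01 to 1.03), while pool 9-12 was at 0.541% (0.521 to 0.561), within the range of the Flox carrageenan pools. These intervals cover counting error only.

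**Figure D1:**
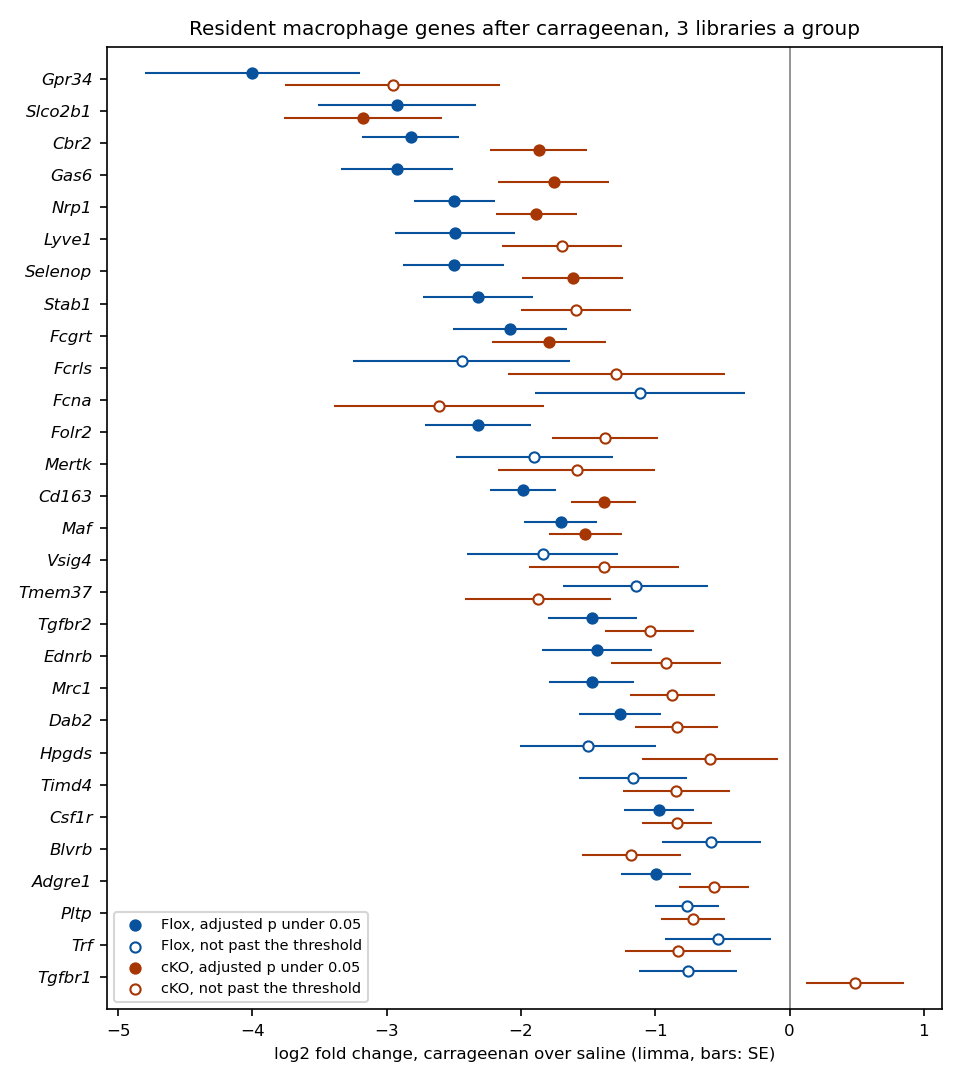
Log2 fold change of carrageenan over saline (x axis, bars are SE) for each of the 29 tested members (y axis), in Flox (blue) and cKO (brown), with filled points for an adjusted p under 0.05. All Flox points lie below 0, 18 of them filled; in cKO 28 lie below 0 and 8 are filled, and Tgfbr1 alone lies above 0.

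The promoters of 4 members are shown because the members moved together; the bases are the 250 before the start site as RefSeq gives it (GRCm38.p6). Stab1 and Timd4 fell and hold a MAF half-site, Slco2b1 had the second-largest fall and holds no match, and Tgfbr1 is the member whose fold was nearest 0. Capitals mark TGCTGA, the half-site of MAF factors, on either strand (TCAGCA on the other strand); the only other motif searched, the PU.1 motif GAGGAAGT, occurs in none of the 4.
Stab1 (chr14:31168642-31168891, minus strand): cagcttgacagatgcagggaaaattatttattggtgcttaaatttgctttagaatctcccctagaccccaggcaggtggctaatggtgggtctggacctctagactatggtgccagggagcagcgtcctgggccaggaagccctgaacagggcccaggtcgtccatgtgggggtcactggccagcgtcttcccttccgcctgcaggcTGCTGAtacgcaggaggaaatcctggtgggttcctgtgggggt
Timd4 (chr11:46810549-46810798, plus strand): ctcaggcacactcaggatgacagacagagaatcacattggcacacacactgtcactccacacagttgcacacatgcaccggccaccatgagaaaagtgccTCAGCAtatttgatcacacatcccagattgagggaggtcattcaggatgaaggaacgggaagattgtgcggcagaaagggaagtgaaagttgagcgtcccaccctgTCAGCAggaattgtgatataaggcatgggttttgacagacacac
Slco2b1 (chr7:99711341-99711590, minus strand): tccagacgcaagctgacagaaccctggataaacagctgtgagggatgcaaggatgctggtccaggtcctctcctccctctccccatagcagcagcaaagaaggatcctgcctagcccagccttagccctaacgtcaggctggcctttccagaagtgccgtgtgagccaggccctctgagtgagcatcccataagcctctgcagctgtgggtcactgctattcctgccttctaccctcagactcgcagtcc
Tgfbr1 (chr4:47352972-47353221, plus strand): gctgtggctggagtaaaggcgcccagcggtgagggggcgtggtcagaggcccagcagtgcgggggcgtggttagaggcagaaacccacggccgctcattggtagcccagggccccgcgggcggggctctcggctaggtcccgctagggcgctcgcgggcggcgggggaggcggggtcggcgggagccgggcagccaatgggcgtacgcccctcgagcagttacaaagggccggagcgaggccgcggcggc

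Of the 31 members, 24 had at least 1 RefSeq promoter window. TGCTGA occurred, on either strand, in a window of 10 of these 24 genes, against 18.02% of all 27025 genes with a window. Those genes were Cd5l, Dab2, Ednrb, Fcna, Fcrls, Folr2, Stab1, Tgfbr1, Timd4 and Tmem37, where the Tgfbr1 match lies before its other start. GAGGAAGT occurred in 2 of 24, Hpgds and Selenop, against 2.79% of all genes. No window of a member held both motifs. Slco2b1, Cbr2, Gas6 and Nrp1, with some of the largest falls, held neither in their windows.

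Averaged over genotypes, 7 of 7 scavenger and endocytic receptors fell, beside 4.86% of all genes. Within genotypes 7 fell in Flox (2.74% of all genes) and 2 in cKO (0.547%). Cd163, the receptor for hemoglobin bound to haptoglobin, was at 706, 955 and 817 in Flox saline and 185, 182 and 261 in Flox carrageenan. In cKO it was at 718, 753 and 916 with saline and 357, 330.1 and 235 with carrageenan. Neither genotype's groups overlapped, and Cd163 fell in both (Flox -1.98 ± 0.24, limma adjusted p = 0.000688; cKO -1.38 ± 0.24, adjusted p = 0.00731). Lyve1 encodes a hyaluronan receptor that marks perivascular macrophages as well as lymphatic vessels. Its values were 584, 813 and 639.8 in Flox saline, 128, 67.6 and 194 in Flox carrageenan, 717, 1533 and 761 in cKO saline and 439, 394 and 141 in cKO carrageenan. All carrageenan libraries lay below all saline libraries, with an averaged fold of -2.09 ± 0.32 (limma adjusted p = 0.000568). In cKO alone the fold of Lyve1 was -1.70 ± 0.45 and did not pass (adjusted p = 0.0622).

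Folr2, the folate receptor beta of tissue macrophages, went from 270.2, 347 and 319 to 83.3, 33.8 and 81.6 in Flox and from 357, 475 and 384 to 243, 191 and 79.8 in cKO. The cKO pool 9-12 was the lowest of its group and the only one in the Flox carrageenan range. The averaged fold was -1.85 ± 0.28 (limma adjusted p = 0.000579). Stab1, the scavenger receptor stabilin-1, went from 436, 361 and 375 to 119.8, 33.8 and 113 in Flox and from 425, 213 and 454 to 116, 107 and 119.7 in cKO. Here the 3 cKO carrageenan libraries were close together and within the Flox carrageenan range. The averaged fold was -1.95 ± 0.29 (limma adjusted p = 0.000464), and in cKO alone Stab1 passed with a block by pool (adjusted p = 0.0433) and not without it (adjusted p = 0.0539). Fcgrt, the heavy chain of the neonatal Fc receptor that recycles IgG, was at 93.7, 209.7 and 253 in Flox saline and 49.5, 20.3 and 61.2 in Flox carrageenan. Its cKO values were 255, 183 and 286 and 79.5, 77.8 and 50.6. It fell in both genotypes (Flox -2.08 ± 0.43, limma adjusted p = 0.00925; cKO -1.79 ± 0.43, adjusted p = 0.037), although the cKO call was lost with a block by pool (adjusted p = 0.0613) and when any 1 of the 6 cKO libraries was left out (highest adjusted p over all settings 0.176).

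The other receptors of this kind fell less. Mrc1, the mannose receptor CD206, had an averaged fold of -1.17 ± 0.22 (limma adjusted p = 0.00297). For Dab2, a clathrin adaptor that sorts receptors into endosomes, it was -1.05 ± 0.22 (adjusted p = 0.00507). Both passed in Flox (adjusted p = 0.0119 and 0.0223) and not in cKO (0.23 and 0.235).

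Among genes that recognise dead cells and microbes, 6 of 6 tested members fell averaged over genotypes, beside 4.86% of all genes. Within genotypes only 1 of the 6 passed, Gas6, in Flox (2.74% of all genes fell) and in cKO (0.547%). Gas6 encodes the bridge between phosphatidylserine on dying cells and the TAM receptors, one of which is the kinase encoded by Mertk. Gas6 was at 1081, 664 and 726 in Flox saline and 130.2, 74.3 and 120.1 in Flox carrageenan. In cKO it was at 1111, 1353 and 895 with saline and 555, 436 and 143 with carrageenan. The groups of each genotype were fully apart, and the cKO pools 1-4 and 5-8 lay far above every Flox carrageenan library. Gas6 fell in Flox (-2.92 ± 0.41, limma adjusted p = 0.00121) and in cKO (-1.76 ± 0.41, adjusted p = 0.0357). Without cKO carrageenan 9-12 its cKO fold was -1.17 and did not pass, and 6 other omissions of 1 library also lost the cKO call (highest adjusted p 0.144).

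Mertk itself was low, at 24.1 ± 12.7 (mean ± SD, n = 3) in Flox saline and 5.86 ± 3.95 in Flox carrageenan, with 22.6 ± 2.01 and 6.97 ± 1.95 in cKO. Its averaged fold was -1.74 ± 0.41 (limma adjusted p = 0.0118). Vsig4 encodes a complement receptor of resident macrophages and fell by 1.61 on the log2 scale (adjusted p = 0.0153). Timd4 (a phosphatidylserine receptor, -1.005 ± 0.28, adjusted p = 0.0311), Fcna (ficolin A, a lectin that binds microbial sugars, -1.86 ± 0.55, 0.041) and Fcrls (a scavenger-type receptor related to Fc receptors, -1.87 ± 0.57, 0.0467) passed narrowly. Their calls were lost in 10, 11 and 11 of the alternative settings, and without cKO carrageenan 9-12, which held 1 Fcna read, the Fcna fold was -1.23.

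Among growth factor receptors and the transcription factor Maf, 4 of 5 fell averaged over genotypes, beside 4.86% of all genes. Within genotypes 4 fell in Flox (2.74% of all genes) and 2 in cKO (0.547%). Nrp1 encodes neuropilin-1, a co-receptor for semaphorins and VEGF. Its values were 176, 123 and 115 in Flox saline and 26.04, 23.7 and 20.4 in Flox carrageenan, with 79.1, 74.9 and 102 and 23.4, 25.03 and 18.4 in cKO. All 6 carrageenan libraries lay within a narrow range far below saline, pool 9-12 included, and Nrp1 had the smallest p of all members (averaged -2.19 ± 0.21, limma adjusted p = 2.32e-05). Maf encodes c-MAF, a transcription factor of resident macrophages. Maf went from 607, 878 and 631 to 151, 260.2 and 245 in Flox and from 1109, 724 and 876 to 368, 302 and 265 in cKO. It fell in both genotypes by about as much as the median member (Flox -1.70 ± 0.27, limma adjusted p = 0.00232; cKO -1.52 ± 0.27, adjusted p = 0.00761).

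Csf1r, the CSF1 receptor on which macrophage survival depends, was still at 654 ± 49.8 in Flox and 851 ± 247 in cKO carrageenan, from 1285 ± 113 and 1491 ± 260.2 in saline (averaged -0.91 ± 0.18, limma adjusted p = 0.00447). The TGF-beta receptors parted. Tgfbr2 fell (-1.26 ± 0.23, limma adjusted p = 0.00261), whereas Tgfbr1 had an averaged fold of -0.13 ± 0.26 (adjusted p = 0.792). Tgfbr1 was at 88.2, 58.3 and 38.6 in Flox saline, 39.1, 33.8 and 30.2 in Flox carrageenan, 46.6, 51.1 and 26.5 in cKO saline and 57.4, 63.3 and 49.1 in cKO carrageenan. Both genotypes' groups overlapped, with folds of -0.76 ± 0.36 in Flox and 0.49 ± 0.36 in cKO that did not pass (limma adjusted p = 0.228 and 0.837). Tgfbr1 had the smallest p of the members for a difference between the genotypes' carrageenan effects (1.22 ± 0.50, adjusted p = 0.967), and that difference did not pass either.

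All 3 surface receptors of the G protein-coupled and adhesion kind fell averaged over genotypes, beside 4.86% of all genes. Within genotypes 3 of 3 fell in Flox (2.74% of all genes) and 0 of 3 in cKO (0.547%). The Flox calls of Adgre1 and Ednrb were lost in 6 and 9 omissions of 1 library. Gpr34, a receptor for lysophosphatidylserine, had the largest fall of all members. It was at 33.1, 74.6 and 46.1 in Flox saline and 5.21, 0 and 3.78 in Flox carrageenan, where pool 4-7 held no read, which allows a level of up to 10.1. In cKO it was at 70.6, 88.9 and 54.7 with saline and 18.3, 14.7 and 1.53 with carrageenan. The averaged fold was -3.48 ± 0.57 (limma adjusted p = 0.000968), and the Flox fold of -3.999 ± 0.80 became -3.18 without the pool that held no read. Adgre1, which encodes F4/80, the classic mouse macrophage surface marker, had one of the smallest falls (-0.78 ± 0.19, limma adjusted p = 0.0122). Ednrb, the endothelin B receptor, had an averaged fold of -1.18 ± 0.29 (adjusted p = 0.0155).

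Of the secreted carriers, 2 of 3 fell averaged over genotypes, beside 4.86% of all genes. Within genotypes 1 fell in Flox (2.74% of all genes) and 1 in cKO (0.547%). Selenop, the plasma carrier of selenium, went from 1461, 2409 and 2183 to 417, 257 and 393 in Flox and from 1999.8, 3403 and 2457 to 1257, 1054 and 437 in cKO. It fell in both genotypes (Flox -2.50 ± 0.38, limma adjusted p = 0.00165; cKO -1.62 ± 0.38, adjusted p = 0.0331), and the cKO call was lost without pool 9-12 and in 6 other omissions of 1 library (highest adjusted p = 0.14). Pltp, the phospholipid transfer protein, had the smallest fold that passed (-0.74 ± 0.17, limma adjusted p = 0.00938). Trf, which encodes transferrin, did not pass (-0.68 ± 0.28, adjusted p = 0.143), and its cKO carrageenan values were 48.9, 66.6 and 132, with pool 9-12 the highest.

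Of the enzymes, the transporter and the channel subunit, 4 of 5 fell averaged over genotypes, beside 4.86% of all genes. Within genotypes 2 fell in Flox (2.74% of all genes) and 2 in cKO (0.547%). Cbr2, a carbonyl reductase much used as a marker of resident macrophages in mice, was at 551, 725 and 709 in Flox saline and 75.5, 77.7 and 133 in Flox carrageenan. Its cKO values were 844, 934 and 1099.8 with saline and 399, 339 and 130.4 with carrageenan. The groups did not overlap in either genotype (Flox -2.82 ± 0.36, limma adjusted p = 0.000759; cKO -1.87 ± 0.36, adjusted p = 0.0131). Slco2b1 encodes an organic anion transporter. It went from 60.7, 86.2 and 49.3 to 13.02, 3.38 and 9.06 in Flox and from 119.6, 92.7 and 85.2 to 16.3, 17.7 and 3.07 in cKO, and fell about as far in both (-2.92 ± 0.59, limma adjusted p = 0.00834; -3.18 ± 0.59, adjusted p = 0.00964). Its lowest values rest on few reads, 5, 1 and 12 in Flox carrageenan and 2 in cKO carrageenan 9-12.

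Tmem37, a calcium channel gamma-like subunit, had an averaged fold of -1.51 ± 0.38 (limma adjusted p = 0.0179). For Blvrb, the heme-pathway enzyme biliverdin reductase B, it was -0.88 ± 0.26 (adjusted p = 0.0405), a call lost in 9 alternative settings. Hpgds, the hematopoietic synthase of prostaglandin D2, had a fold of -1.05 ± 0.36 that did not pass with limma (adjusted p = 0.0781) and did with edgeR and DESeq2.

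**Figure D2:**
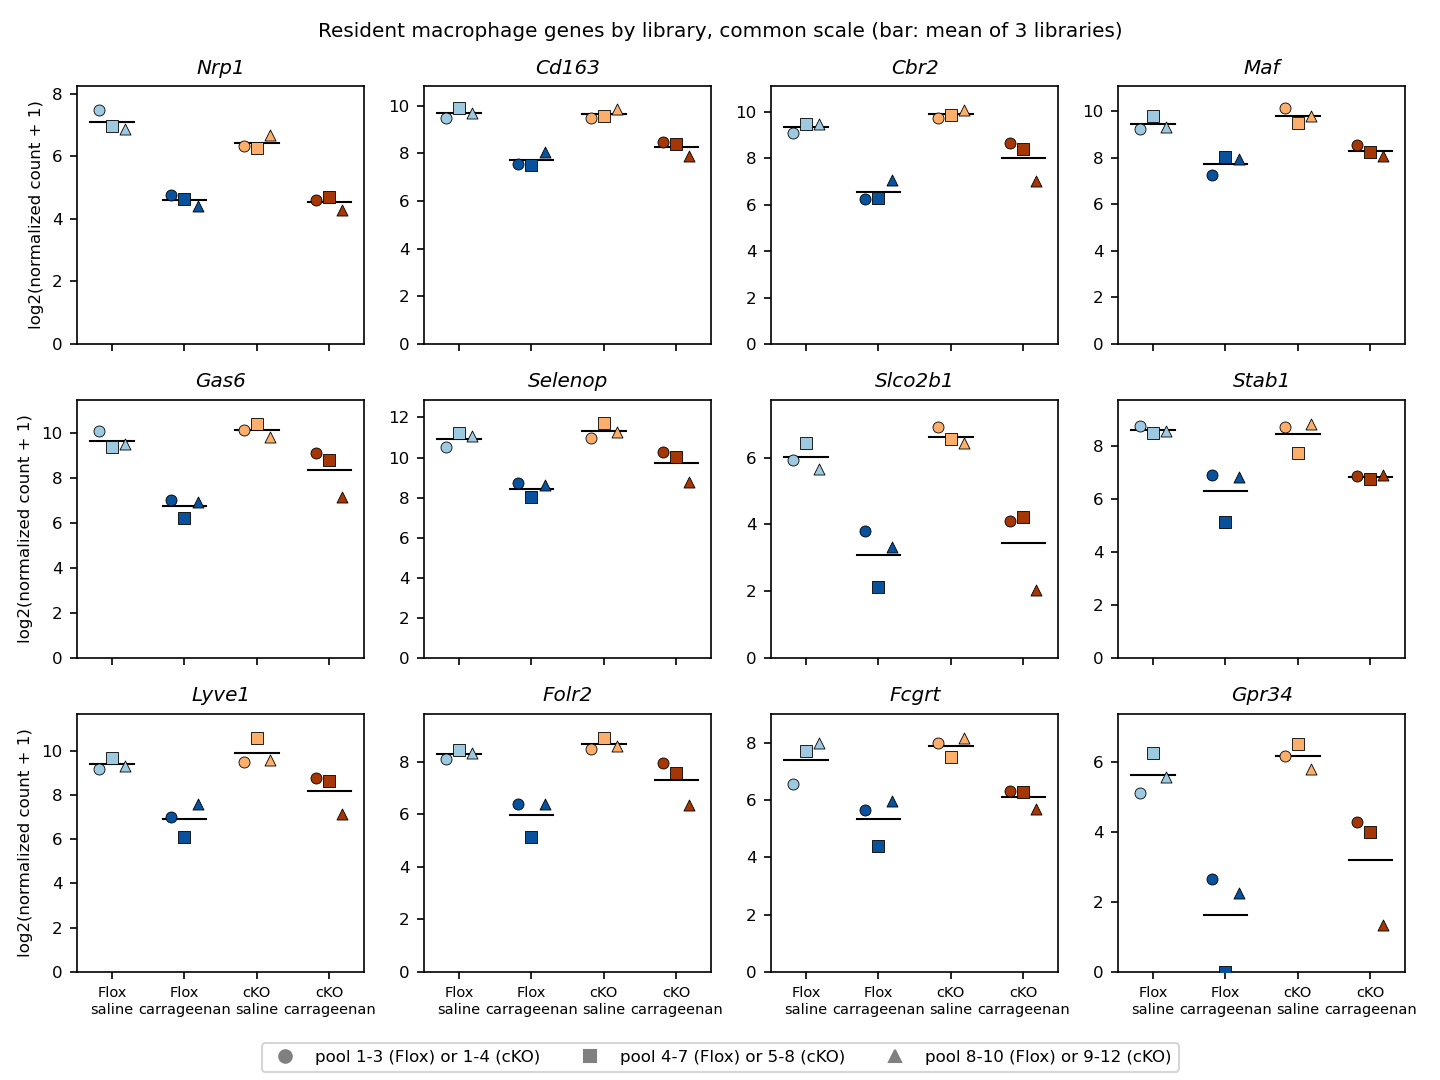
Values of the 12 members with the smallest p, as log2(normalized count + 1) on the common scale (y axis), in the 4 groups (x axis); each point is a library, its shape gives the pool and the bar is the mean of 3. The cKO carrageenan pool 9-12 (brown triangle) lies below pools 1-4 and 5-8 for every gene drawn except Stab1.

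Within genotypes, 18 of 29 members fell in Flox, where 2.74% of all genes fell, and 8 of 29 in cKO, where 0.547% did. The 8 in cKO were Cbr2, Cd163, Fcgrt, Gas6, Maf, Nrp1, Selenop and Slco2b1, and each of them also fell in Flox. The median fold of the members was -1.70 in Flox (all genes 0.10) and -1.38 in cKO (all genes -0.07). The Flox carrageenan libraries lay wholly below Flox saline for 24 of 29 members (9.97% of all genes), and the cKO libraries did so likewise for 24 of 29 (17.0% of all genes). The number of calls depended on the tool. With edgeR, 18 members fell in Flox (2.39% of all genes) and 16 in cKO (2.32%), and with DESeq2 24 in Flox (3.72%) and 19 in cKO (3.43%). A block by pool left 8 in cKO (0.518%), with Stab1 in place of Fcgrt. Without cKO carrageenan 9-12 limma found 5 (0.177%), without cKO saline 1-4 it found 3 (0.109%), and without Flox saline 1-3 it found 13 (1.45%).

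The difference of the carrageenan effects between genotypes was tested directly. It passed for 0 of 29 members and for 0% of all genes with limma, where 244 genes had an unadjusted p under 0.05, and for no gene with edgeR or DESeq2. The estimate was positive, meaning a smaller fall in cKO, for 24 of 29 members, with a median of 0.43 against -0.15 over all genes. The members' median was 0.71 without cKO carrageenan 9-12, where no member was called, and 0.24 without Flox carrageenan 4-7. The median over all genes was 0.05 without Flox saline 1-3 and 0.03 with edgeR. The largest estimates with small errors were for Tgfbr1 (1.22 ± 0.50), Gas6 (1.14 ± 0.59), Cbr2 (0.93 ± 0.52) and Folr2 (0.92 ± 0.57), each with a limma adjusted p of 0.967. Carrageenan effects therefore were not shown to differ between genotypes.

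Another 37 genes of resident macrophages, not members, gave a wider view. Of 36 tested, 23 fell and none rose in the averaged comparison, with a median fold of -0.95, beside 4.86% of all genes falling and 6.8% rising. Wwp1 encodes a ubiquitin ligase and was at 254, 182 and 169 in Flox saline, 23.4, 23.7 and 17.4 in Flox carrageenan, 232, 235 and 189 in cKO saline and 88.3, 60.4 and 21.5 in cKO carrageenan (-2.65 ± 0.29, limma adjusted p = 4.54e-05). Saline and carrageenan groups were fully apart in both genotypes. The lectin gene Clec10a (-2.38 ± 0.28, adjusted p = 9.38e-05) and the ribonuclease gene Rnase4 (-1.38 ± 0.18, 0.000229) fell likewise. Wwp1 and Clec10a were listed with their response in these data known.

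Counts of other genes of the members' pathways are to be read beside 4.86% of all genes falling and 6.8% rising. Of 11 tested genes for uptake of dead cells other than members, 1 fell: Cd36, a lipid and phosphatidylserine scavenger receptor (-1.29 ± 0.20, limma adjusted p = 0.000593). Pros1, which encodes protein S, the other TAM ligand, had -0.78 ± 0.25 (adjusted p = 0.0539), and the TAM receptor gene Axl 0.55 ± 0.23 (0.154). Neither passed.

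In CSF1 and TGF-beta signalling, 2 of 11 tested genes other than members rose and 1 fell. Csf1, the ligand of the CSF1 receptor, was at 0, 0 and 3.21 in Flox saline and 49.5, 50.7 and 43.04 in Flox carrageenan, with 5.41, 4.56 and 5.29 and 30.6, 24.7 and 33.8 in cKO. Its groups were fully apart in both genotypes (3.62 ± 0.44, limma adjusted p = 0.000116), so the ligand rose where its receptor gene Csf1r fell. Csf2rb, the shared beta chain of the GM-CSF, IL-3 and IL-5 receptors, rose (1.74 ± 0.29, adjusted p = 0.00133), and Ski, a repressor of SMAD signalling, fell (-1.25 ± 0.26, 0.00537).

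In hemoglobin and heme handling, 1 of 10 tested genes other than members rose and 1 fell. Hp encodes haptoglobin, the plasma protein whose complex with hemoglobin CD163 takes up, and it rose (4.11 ± 0.83, limma adjusted p = 0.00432), with cKO carrageenan values of 47.2, 96.6 and 428 and pool 9-12 the highest. Tfrc, the transferrin receptor, fell (-1.35 ± 0.30, adjusted p = 0.0083). The heme transporter gene Slc48a1 (-0.83 ± 0.27, adjusted p = 0.0623) and the ferritin gene Fth1 (0.82 ± 0.28, 0.077) did not pass.

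Markers of inflammatory monocytes and neutrophils moved the opposite way from the members, in the same libraries. Of 13 inflammatory monocyte genes 8 rose and none fell, and of 7 tested neutrophil genes 5 rose, beside 6.8% of all genes. The monocyte genes summed to 2454, 2949.8 and 3912 normalized counts in Flox saline and 7991, 9545 and 8259 in Flox carrageenan. In cKO they summed to 2022, 3166 and 3521 with saline and 3689, 6890.1 and 10847 with carrageenan. The cKO carrageenan pool 1-4 thus lay inside the saline range of Flox, and pool 9-12 above all other libraries. The neutrophil genes summed to 60.7, 34.95 and 77.2 in Flox saline, 427, 395 and 726 in Flox carrageenan, 27.7, 20.3 and 37.03 in cKO saline and 142, 201 and 699.6 in cKO carrageenan. Of the 13 neutrophil genes, Camp and Ngp had no read in any library. Fibroblast genes also rose (4 of 10), from 66.2 to 719 summed normalized counts over the 6 saline libraries to 845 to 1436 over the 6 carrageenan libraries. Of the endothelial and mural genes 2 of 6 rose, and their sum went from 0, 4.66 and 24.6 to 54.7, 64.2 and 70.2 in Flox, while the cKO groups overlapped (30.9 to 69.4 with saline, 41.4 to 60.7 with carrageenan). Of 8 tested dendritic cell genes 2 rose and none was called lower, while 5 had negative folds (median over the 8 of -0.15). The 1 tested gene of T and NK cells rose, and that list summed to 0, 0 and 4.29 in Flox saline and 23.4, 33.8 and 22.7 in Flox carrageenan, with 1.18 to 3.54 and 4.60 to 7.07 in cKO. The 1 tested B cell gene, Ighm, fell by 1.63 on the log2 scale. None of the tested eosinophil, mast cell, keratinocyte or erythroid and platelet genes passed. The keratinocyte genes summed to 254 to 617 in Flox saline and 728 to 1520 in cKO saline. After carrageenan they summed to 480 to 698 in Flox and 586 to 1018 in cKO. The part of these other cells in the members' fall was not tested.

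**Figure D3:**
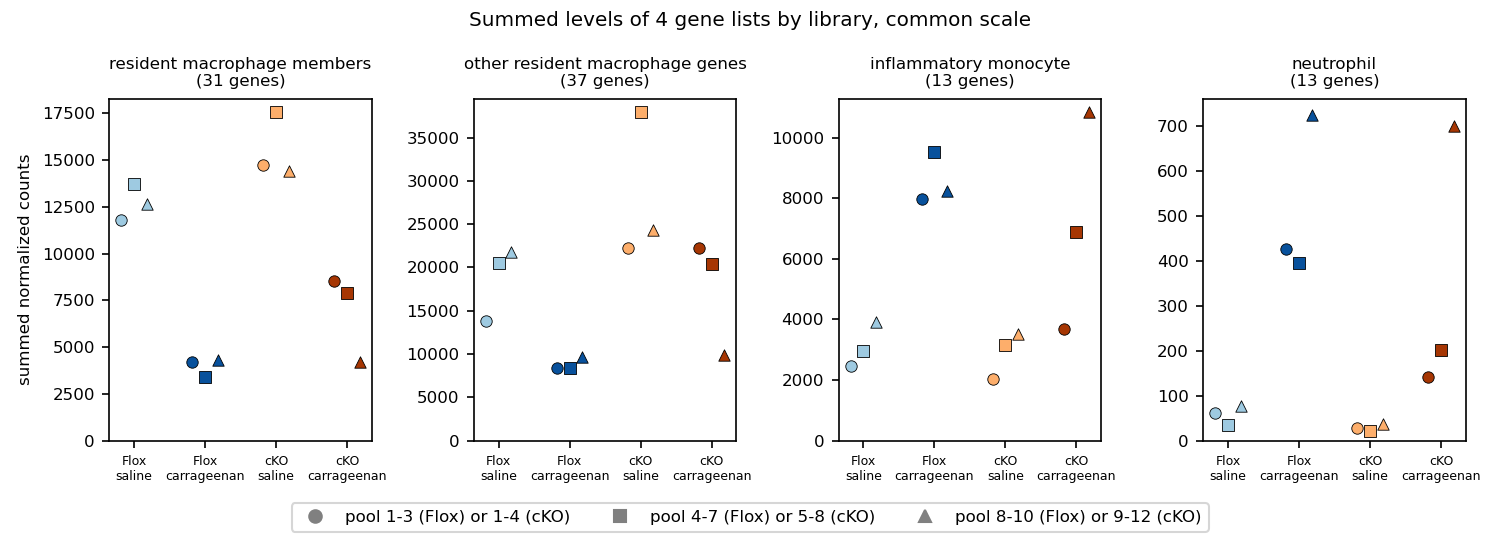
Summed normalized counts on the common scale (y axis, from 0, a different range in each panel) of the 31 members, 37 other resident macrophage genes, 13 inflammatory monocyte genes and 13 neutrophil genes in the 4 groups (x axis); each point is a library and its shape gives the pool. Among cKO carrageenan libraries, pool 9-12 is the lowest in both resident macrophage panels and the highest in the monocyte and neutrophil panels.

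Between genotypes with saline, the members showed no difference that passed. Of 29 tested members, 0 were called (0% of 9371 genes by limma, with 508 genes and 2 members at an unadjusted p under 0.05), and neither edgeR nor DESeq2 called a member, though DESeq2 called 22 genes. Folds of cKO over Flox were fitted on the scale of the deposited tables, and their median was 0.25 for the members and 0.25 for all genes. The median over all genes moved with the tool, at 0.06 with edgeR and with DESeq2, where that of the members was 0.22, and without Flox saline 1-3 the medians were 0.11 for the members and 0.07 for all genes. The members under 0.05 unadjusted were Vsig4 (1.13 ± 0.43, adjusted p = 0.683) and Nrp1 (-0.65 ± 0.27, adjusted p = 0.683), in opposite directions. Vsig4 was at 16.5, 20.97 and 27.9 in Flox saline and 36.2, 74.2 and 38.2 in cKO saline, so the groups were apart. They were 3, 9 and 26 reads against 107, 293 and 65.

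After carrageenan no member passed between genotypes, while most estimates lay above 0. Of 28 tested members, 0 were called by limma (0% of 9151 genes, with 897 genes and 11 members at an unadjusted p under 0.05); Fcrls was too low to be tested. The fold of cKO over Flox was positive for 22 of 28, with a median of 0.56 against 0.09 over all genes. It was negative for 6 members, beside 43.5% of all genes. The 3 cKO libraries lay wholly above the 3 Flox libraries for 5 of 29 members (9.02% of all genes). Pools 1-4 and 5-8 did so for 19 of 29 (24.9%), and pool 9-12 was the lowest of its group for 22 of 29 (47.9%).

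Gas6, Cbr2 and Selenop, whose values are given above, were the leading genes. Their folds of cKO over Flox after carrageenan were 1.63 ± 0.46, 1.496 ± 0.41 and 1.27 ± 0.38, each with a limma adjusted p of 0.497. DESeq2 called Gas6 alone among the members (adjusted p = 0.0469, where 0.0765% of all genes were called higher), and edgeR called none. That share is taken over 9151 genes, of which DESeq2 gave 6742 no adjusted p, so these could not be called. In the authors' deposited table for carrageenan, no member had an adjusted p under 0.05. The lowest there was Gas6, with a log2 fold change of 1.44 ± 0.365 (SE) and an adjusted p of 0.0622. In the authors' deposited table for saline, the lowest adjusted p of a member was 0.629.

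These values moved with single libraries. Without cKO carrageenan 1-4, 3 members had an unadjusted limma p under 0.05, beside 260 of all genes, and no member was called. Without cKO carrageenan 5-8 there were 4, beside 253 of all genes, and no member was called. The third pool, cKO carrageenan 9-12, was the lowest of its group for 22 of 29 members (47.9% of all genes). Leaving it out therefore raises the cKO means of those members by itself, and the calls follow in part from that choice. On the 2 cKO libraries left and the 3 Flox libraries, limma called 9 of 28 members, all higher in cKO, where 1.43% of all genes were called higher and 3.29% lower. They were Gas6 (2.22 ± 0.27, limma adjusted p = 0.00808), Selenop (1.73 ± 0.23, 0.00983), Cbr2 (1.995 ± 0.28, 0.0106), Mrc1, Dab2, Ednrb, Lyve1, Folr2 and Tgfbr2. Mrc1 was at 474, 459.5 and 368 in Flox carrageenan and 942, 1056 and 442 in cKO carrageenan, and at 1323, 1198 and 1088 and 1217, 1904 and 1166 with saline. Dab2 was at 703, 527 and 749 against 1536, 1533 and 695 after carrageenan, and Ednrb at 70.3, 91.2 and 74.8 against 202, 183 and 56.8. For each of these genes pools 1-4 and 5-8 lay between the Flox carrageenan and the saline levels, or at the latter, and pool 9-12 lay within the Flox carrageenan range or below it, except for Gas6 and Selenop, where it was just above.

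Not every member followed that pattern. Nrp1 and Stab1 were alike in the 3 cKO carrageenan libraries, and without pool 9-12 their folds of cKO over Flox were 0.07 ± 0.34 and 0.53 ± 0.51. Trf and Blvrb had folds below 0 (-0.85 ± 0.25 and -0.84 ± 0.31), and neither passed (limma adjusted p = 0.109 and 0.176). Pool 9-12 also held the fewest reads of its group (508407, against 2271231 and 2627107), and its monocyte and neutrophil sums were the highest of the group, as given above. Its Fabp5 (23.0) and Lyz2 (3496) were also the highest of the group and nearer to the Flox carrageenan libraries than those of pools 1-4 and 5-8. The part of depth, of cell makeup and of genotype in its values was not tested.

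**Figure D4:**
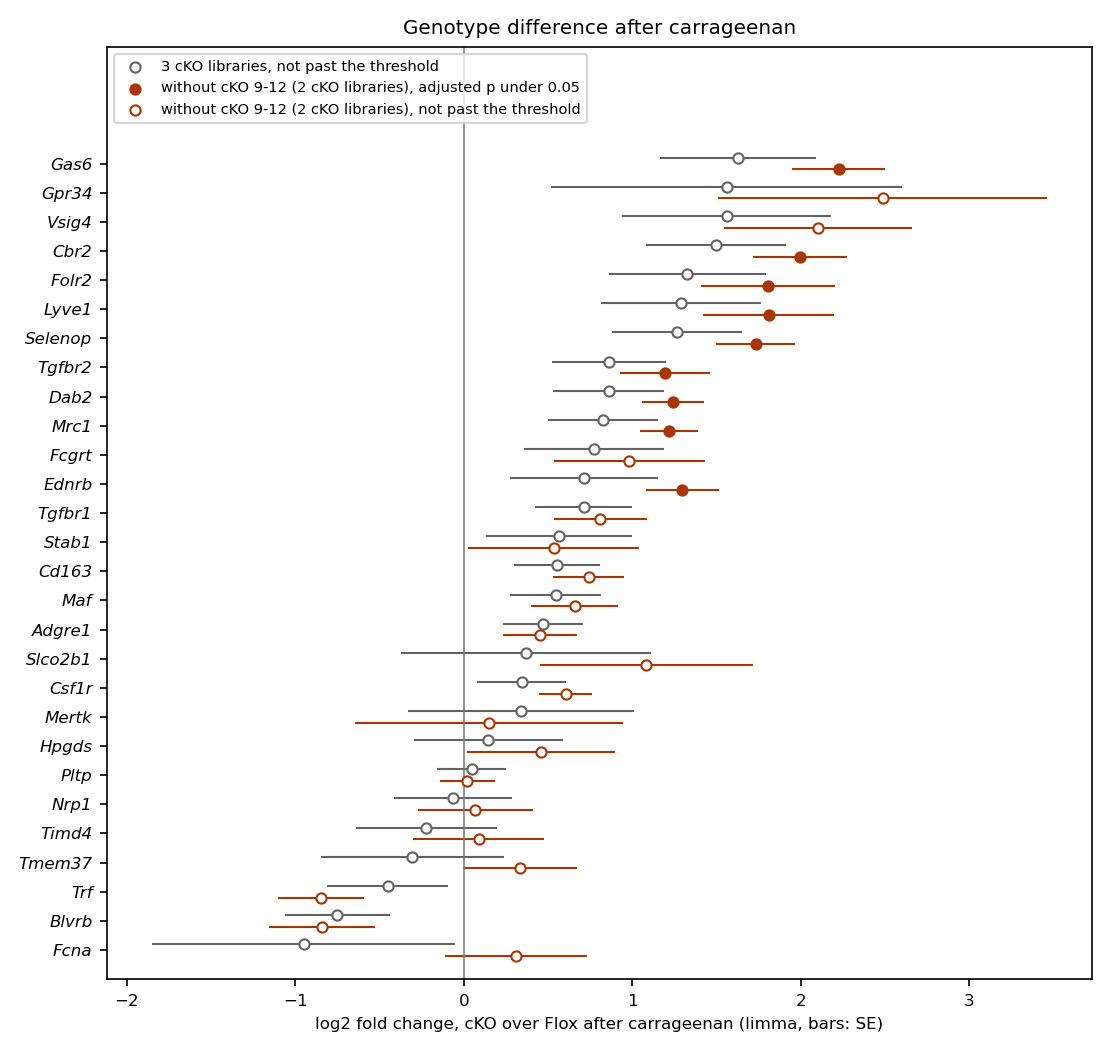
Log2 fold change of cKO over Flox after carrageenan (x axis, bars are SE) for 28 members (y axis), with all 3 cKO libraries (grey) and without cKO 9-12 (brown), with filled points for an adjusted p under 0.05. No grey point is filled, and 9 brown points are, all to the right of 0.

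Averaged over saline and carrageenan, the folds of cKO over Flox were positive for 23 of 29 members (median 0.46, all genes 0.23). They were negative for 6 members, beside 33.4% of all genes. Here limma called 0 of 29 members and 1 gene (0.00976% of 10243). The largest were Vsig4 (1.35 ± 0.40, limma adjusted p = 0.198), Gas6 (1.06 ± 0.29, 0.196), Gpr34 (1.06 ± 0.57, 0.376) and Cbr2 (1.03 ± 0.26, 0.194). The count tools differed from limma here. With edgeR, Cbr2 and Gas6 were higher in cKO (adjusted p = 0.0481 and 0.0447, with 0.225% of all genes called higher). DESeq2 called both and also Vsig4 and Selenop (0.898% of all genes). Without cKO carrageenan 9-12 limma called 8 members higher (0.749% of all genes): Cbr2 (1.28 ± 0.19, adjusted p = 0.00891), Gas6 (1.36 ± 0.20, 0.00891), Dab2, Selenop, Folr2, Vsig4, Mrc1 and Lyve1. That library was the lowest of its group for each of them, so its omission by itself raised their cKO means.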

How the data were processed

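RNA was measured in 12 pooled libraries of adult mice. Per the labels' protocols, Ly6G- myeloid cells were sorted from dissociated hind paws, RNA was taken with the PureLink Micro kit, and 3' libraries with unique molecular identifiers (LUTHOR) were sequenced with paired-end reads. Per the submitters' processing notes, cutadapt, STAR and GRCm38 were used; no version, counter or annotation is named there. The authors deposited 1 table of normalized counts (a signal) for each treatment, each normalized by itself. Their tables of cKO against Flox hold, per the file headers, a log2 fold change with a standard error, a test score, and a p-value before and after adjustment.

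Whole reads were recovered, since 100% of low values were whole multiples of 1 read (tolerance 0.001), and 100% of all values were at a wider tolerance. Of 55522 entries, 121 that are not genes were left out (0.170 to 2.23% of reads per library). No library was a copy of another of its group, since chi-square over degrees of freedom was 2.71 to 16.3 for each pair. Nothing says whether p-values reflect separate experiments beyond separate pools. For carrageenan against saline, the 12 libraries were fitted at once after rescaling each by its median ratio to the per-gene geometric means of 6501 genes, because the deposited scales differ between treatments. Genotype folds and the difference of effects used the deposited scale. limma, with its prior variance following the mean, was the main test, on log2(value + 1), genes at 5 or more in at least 3 libraries, Benjamini-Hochberg adjusted p under 0.05. The added 1 understates changes of low genes. edgeR (quasi-likelihood, TMM) and DESeq2 on the recovered reads, other pseudocounts, filters and scales, a pool block and omission of each library were alternatives. The fits were tested on simulated data. Carrageenan and saline pools of 1 number correlated in their deviations in cKO (0.200, 0.336 and 0.434). In Flox not every such pair did (0.00905, -0.0181 and 0.109). Among cKO pools of different numbers, saline 5-8 and carrageenan 1-4 correlated at 0.236, above the lowest matched value. The other unmatched cKO pairs were at -0.395 to 0.0294. The main fits did not pair the pools, and only the alternative with a pool block used the pairing.

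The members and gene lists were chosen with earlier results of these data known, so counts are described and no list was tested. All members are accounted for; every library's value is given for the 12 with the smallest p in the averaged carrageenan comparison, and from each pathway list the 4 other genes with the smallest p are named, except 1 gene that is not reported here. Values of further genes, such as Tgfbr1, Mrc1, Dab2, Ednrb, Trf and Vsig4, were added after they were seen. Symbols and positions are from GENCODE vM21 (GRCm38), promoters from RefSeq. Fits were run in R 4.3.3 with limma 3.58.1; the alternatives used DESeq2 1.42.0 and edgeR 4.0.16.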

Additional observations from a re-analysis of the deposited data

How the results depend on the processing

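Of the members' folds no called one changed sign under any alternative run. In Flox, 350 to 1080 genes were called when 1 library was left out and 418 with no filter on low values, against 734. In cKO, where 271 genes and 8 members were called, leaving out 1 library gave 84 to 521 genes and 3 to 13 members. There a pseudocount of 5 gave 13 members, no filter 143 genes and 5 members, edgeR 730 and 16, and DESeq2 915 and 19. Averaged over genotypes, DESeq2 called 1854 genes and omission of 1 library 790 to 1549, against 1194, with 21 to 27 members. For cKO over Flox, DESeq2 called 22 genes in saline. After carrageenan DESeq2 called 7 genes and 1 member, giving no adjusted p for 6742 genes, and omission of 1 library gave 0 to 420 genes and 0 to 9 members. Averaged over treatments, against 1 gene and 0 members, there were 8 genes with a pseudocount of 5, 0 with no filter, 3 on the other scale, 64 genes and 2 members with edgeR, 254 and 4 with DESeq2, 0 to 230 and 0 to 8 when 1 library was left out, and 769 and 11 without both libraries that stood apart, an alternative added after seeing the data. The cause of these moves was not tested. The replicate block by pool gave 737 genes and 17 members in Flox, 264 and 8 in cKO, 1218 and 25 averaged over genotypes, and 0 genes for the averaged genotype comparison. Under it Fcgrt lost its cKO call and Stab1 gained one (adjusted p = 0.0613 and 0.0433), Adgre1 and Ednrb lost and Fcrls gained a Flox call (0.0571, 0.0648 and 0.0385), and averaged Fcna and Timd4 were lost and Hpgds was gained (0.0553, 0.0556 and 0.0465), with no other member's call changed. No paired analysis was possible within a treatment because the genotypes shared no pool.

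On the deposited scale the share of higher genes among those called was 52.4% in Flox (main 61.7%) and 69.4% in cKO (main 79.3%), and the median fold of all genes in cKO moved from -0.07 to -0.18. In Flox, omission of 1 library lost the calls of Adgre1, Csf1r and Ednrb in 6, 6 and 9 cases, of Dab2 in 2 and of Tgfbr2 in 1 (highest adjusted p 0.112, 0.121, 0.131, 0.109 and 0.079). In cKO, Cbr2, Maf and Slco2b1 were each lost without 1 cKO saline library (0.0642, 0.0567 and 0.0725), and Slco2b1 moved from -3.18 to -2.46 without cKO carrageenan 9-12. Averaged, Tmem37 and Vsig4 were each lost once (0.0551 and 0.0578). With a pseudocount of 5 the folds of Gpr34 and Fcrls were -2.60 and -1.20, so the size of falls among low genes rests on that choice. Depth limits Gpr34, Vsig4, Fcrls, Mertk, Slco2b1, Tmem37, Fcna, Fcgrt, Nrp1, Timd4 and Hpgds, for which at least 1 Flox library held under 10 reads.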
